A study of Mus musculus with 2 samples.

Results

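Spliced protein-coding transcripts that span less than 2500 bases of the mouse genome are described here in newly made and older RNA of embryonic stem cells. The span is the distance from the first to the last base of a transcript in GENCODE M21 (GRCm38), introns included. A transcript had to carry an intron value, and cytosolic and mitochondrial ribosomal protein, Nduf and histone genes were left out by symbol (90 transcripts). This gave 2943 transcripts of 2129 genes, of 46833 spliced coding transcripts and of 91702 transcripts with an intron value. They held 1.88% of the exon signal in labeled RNA and 1.78% in unlabeled RNA.

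The cells were wild-type, feeder-depleted mouse embryonic stem cells of the line DTCM23/49 XY, kept in serum with leukemia inhibitory factor. They received 4-thiouridine (4sU), a modified uridine, at 200 µM for 10 min. RNA that had taken up 4sU was biotinylated and pulled out on streptavidin beads (the labeled RNA), and the RNA left behind is the unlabeled RNA. Each pool is 1 library of replicate 1, all cells were treated alike, and the labels name the second library preexisting RNA in one field and total RNA in another. All 11 pluripotency markers examined were present (exon values of 87.4 to 6384 in labeled RNA), and 7 fibroblast markers reached at most 6.03 there and 14.5 in unlabeled RNA. Of the endoderm, mesoderm and neuroectoderm markers, Pax6, Tubb3 and Nes exceeded 10, and the others reached at most 5.88.

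Removing introns joins the exons of a new transcript into the message that leaves the nucleus, and every cut is made at short signals at the intron ends by the spliceosome. RNA made moments before the cells are lysed is known to hold more intron sequence than older RNA, and the intron to exon ratio in each pool is a measure of unspliced RNA. Short genes are known for compact introns, and many encode small, abundant proteins: respiratory chain subunits, ubiquitin, metallothioneins and thymosins. A short transcript can also be a partial or alternative form of a long gene. Both kinds occur here.

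The spliced messages below show how little sequence such a gene has to join. Each is the whole coding sequence of the GENCODE M21 transcript, and capitals mark the last 3 bases before and the first base after each place where an intron was removed. Mt1 and Mt2 encode metallothioneins, which bind zinc and copper. Cox7c is a subunit of cytochrome c oxidase, Uqcr10 a subunit of the cytochrome bc1 complex, and Tmsb10 a thymosin that binds actin monomers.
Mt1: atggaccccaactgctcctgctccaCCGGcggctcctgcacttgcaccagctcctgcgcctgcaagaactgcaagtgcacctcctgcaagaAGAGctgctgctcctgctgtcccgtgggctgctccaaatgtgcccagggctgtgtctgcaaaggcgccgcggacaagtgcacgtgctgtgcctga
Mt2: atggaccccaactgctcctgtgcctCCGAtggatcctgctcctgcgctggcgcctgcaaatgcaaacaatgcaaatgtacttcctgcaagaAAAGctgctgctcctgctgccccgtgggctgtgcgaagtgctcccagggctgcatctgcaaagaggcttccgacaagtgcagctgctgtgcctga
Cox7c: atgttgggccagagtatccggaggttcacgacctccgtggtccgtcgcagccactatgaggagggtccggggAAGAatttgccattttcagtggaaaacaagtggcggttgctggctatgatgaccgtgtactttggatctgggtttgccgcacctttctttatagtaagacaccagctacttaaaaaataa
Uqcr10: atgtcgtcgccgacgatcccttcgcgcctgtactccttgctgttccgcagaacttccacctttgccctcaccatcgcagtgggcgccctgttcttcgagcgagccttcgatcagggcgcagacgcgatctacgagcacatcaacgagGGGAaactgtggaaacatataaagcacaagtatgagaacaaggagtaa
Tmsb10: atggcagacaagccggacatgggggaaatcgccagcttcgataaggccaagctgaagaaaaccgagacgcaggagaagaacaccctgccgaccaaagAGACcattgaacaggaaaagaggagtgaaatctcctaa

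Mt1 (chr8:94179082-94180327, + strand) and Mt2 (chr8:94172664-94173568, + strand) have coding sequences of 186 bases each, interrupted after bases 28 and 94 in both. Aligned without gaps, 148 of the 186 bases are identical (79.6%). Their introns differ in length, at 484 and 213 bases in Mt1 and 251 and 143 bases in Mt2. The coding sequence of Cox7c (chr13:86044816-86046904, - strand) is 192 bases with an intron of 731 bases after base 75. That of Uqcr10 (chr11:4701973-4704342, - strand) is 195 bases with 1 intron of 1936 bases. That of Tmsb10 (chr6:72957347-72958488, - strand) is 135 bases, and its coding intron has 260 bases.

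For other members, 40 bases of the spliced message around a joint are shown, with the same 4 bases in capitals. No intron base is among them. Utf1 is shown as an abundant member with a single very short intron, Id1 and Dppa5a for their compact introns, and Gm17535 for a gap too short to be an ordinary intron.
Utf1: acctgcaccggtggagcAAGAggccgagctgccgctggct
Id1: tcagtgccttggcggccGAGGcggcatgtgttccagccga
Dppa5a intron 1: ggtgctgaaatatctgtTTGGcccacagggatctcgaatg
Dppa5a intron 2: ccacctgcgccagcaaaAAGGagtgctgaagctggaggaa
Gm17535: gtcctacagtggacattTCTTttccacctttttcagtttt

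The single intron of Utf1, a chromatin-associated regulator of embryonic stem cells, is 97 bases long (chr7:139944430-139944526, + strand). That of Id1, an inhibitor of basic helix-loop-helix factors, has 226 bases (chr2:152736746-152736971, + strand). Dppa5a, an RNA-binding protein of pluripotent cells, has introns of 81 and 426 bases (chr9:78367904-78367984 and chr9:78367295-78367720, - strand). The gap shown for Gm17535, a predicted gene, covers 4 bases (chr9:3034665-3034668, + strand), and its other gaps cover 529 and 2 bases. The gaps of 4 and 2 bases are features of the gene model, while most of its 535 intron bases lie in the gap of 529. Gaps under 30 bases occurred in 42 of the 2943 transcripts (1.43%) and in 0.265% of spliced coding transcripts of 2500 bases or more. Over the introns of the transcripts that passed the exon minimum, the bases AG preceded the joint in 52.2% and G followed it in 50.9%, against 56.2% and 48.4% in the longer transcripts.

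The transcripts had a median span of 1676 bases, with 636 bases of exons and 860 bases of introns (quartiles 495 and 1261), against 2121 and 18914 bases in spliced coding transcripts of 2500 bases or more. Introns took a median of 55.9% of the span, against 90.9%. Most had few introns: 1124 transcripts had 2 exons, 867 had 3, 497 had 4 and 449 had 5 or more, while 6 have a single exon in this annotation although the deposited table lists an intron for them. Distinct introns of the expressed members had a median length of 246 bases (quartiles 120 and 542), against 1419 bases in the longer transcripts, and 17.7% of them were under 100 bases, against 5.33%.

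Genes that are short as a whole gave 1166 transcripts (846 genes), and the other 1777 transcripts (1283 genes) are short forms of genes of 2500 bases or more. GENCODE marks 70.8% of the latter as incomplete at the start or the end, against 6.86% of the former. Both kinds are given below for the main values. Exons of other transcripts covered 28.4% of the intron bases of the short transcripts and 4.24% in the longer ones. Per intron base, an intron value can thus hold reads of another transcript to a larger extent here. Some such overlap occurred in 65.7% of the short transcripts and in 88.0% of the longer ones. The part of this overlap was not tested, and values for introns overlapping no other exon are given in the closing sections.

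The deposited unit, called TPM, is a length-adjusted relative abundance on a scale 10-fold that of ordinary TPM, judged by the column totals. Values below are in this unit. Of the 2943 transcripts, 1679 (57.0%) had a mean exon value of both libraries above 1 and were used, against 72.5% of the longer ones. All 4 values were 0 in 657 transcripts. No read counts come with the table, so counting error is unknown and no test was possible. Intervals in parentheses are 95% intervals over transcripts (Wilson for shares, order statistics for medians), and transcripts of 1 gene share sequence.

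Among the 1679 transcripts, the intron value was listed at 0 in labeled RNA for 388 (23.1%) and in unlabeled RNA for 683 (40.7%). Over all 33628 spliced coding transcripts that passed the minimum these shares were 1.81% and 4.45%. At least one of the intron values was 0 in 742 transcripts, or 44.2% (41.8 to 46.6%), against 4.74% in all. The share was 54.9% (50.6 to 59.0%) in short genes and 39.2% (36.4 to 42.1%) in short forms of longer genes. It was 9.52% at spans of 2500 to 10000 bases and 0.315% above.

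Values of 0 went with the summed intron length. With at most 100 bases of intron, all 56 transcripts were listed at 0 in labeled RNA. The share was 58.2% at 101 to 200 bases, 53.1% at 201 to 400, 25.6% at 401 to 800, 9.93% at 801 to 1600 and 2.60% above. It also went with abundance, from 57.4% with a 0 in either library at mean exon values of 1 to 10 to 20.1% at 100 to 1000. Of the 56 transcripts with the least intron, 11 had mean exon values of at least 100, several of them predicted Gm models with near-identical copies. One, Gm10800, had an intron value of 138.2 in unlabeled RNA and 0 in labeled RNA. Utf1 is also among them, and its exon values were 1012 in labeled and 2831 in unlabeled RNA with both intron values at 0. A short form of the translation factor gene Eif4g2 with 87 bases of intron had exon values of 294.6 and 638.7, also with both intron values at 0. A 0 in this table can be a failed estimate, so it is not read as complete splicing.

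**Figure D1:**
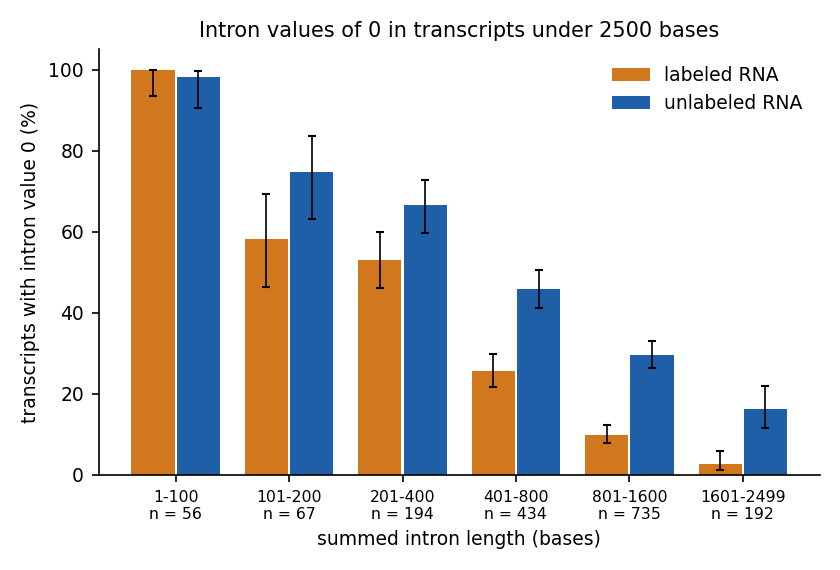
Share of transcripts under 2500 bases whose intron value is listed at 0 (vertical axis, percent) by summed intron length (horizontal axis, bases) in labeled (orange) and unlabeled RNA (blue), with 95% Wilson intervals and n transcripts per class. The labeled share goes from 100% at 1 to 100 bases to 2.60% above 1600 bases, and the unlabeled share is higher in every class but the first, where it is 98.2%.

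Where all 4 values were above 0 (884 transcripts), the intron to exon ratio was 0.304 (0.277 to 0.343) at the median in labeled RNA and 0.127 (0.102 to 0.147) in unlabeled RNA. The labeled ratio was lower than at spans of 2500 to 10000 bases, with 0.438 (0.424 to 0.454), and than above 10000 bases, with 0.622 (0.614 to 0.632). The unlabeled ratio was near 0.11 in both of these classes, at 0.115 and 0.111. Short genes had the lowest labeled ratio, 0.191 (0.138 to 0.271), while short forms of longer genes had 0.343 (0.304 to 0.387). Completeness moved with this ratio too. Among complete models, short genes had 0.179 (0.127 to 0.258) and short forms of longer genes 0.235 (0.182 to 0.273), with intervals that overlapped. Incomplete short forms of longer genes had 0.396 (0.356 to 0.492). Transcripts whose introns were listed at 0 are not in these medians. Counting their ratio as 0, where both exon values were above 0, gave 0.150 for the short and 0.572 for the longer transcripts.

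The lower labeled ratio was found at matched abundance. At mean exon values of 10 to 100 its median was 0.290 (0.258 to 0.333) in the short transcripts, 0.410 (0.397 to 0.427) at spans of 2500 to 10000 bases and 0.588 (0.578 to 0.599) above. At 100 to 1000 it was 0.104 (0.0773 to 0.131), 0.163 (0.148 to 0.179) and 0.274 (0.269 to 0.280). At 1 to 10, where ratios were highest, it was 1.00, 0.942 and 1.32, and the short transcripts did not stand below the middle class. Within the short transcripts the median went from 0.232 under 1000 bases to 0.347 at 2000 to 2500 bases, with intervals that overlapped (0.172 to 0.382 and 0.286 to 0.389).

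**Figure D2:**
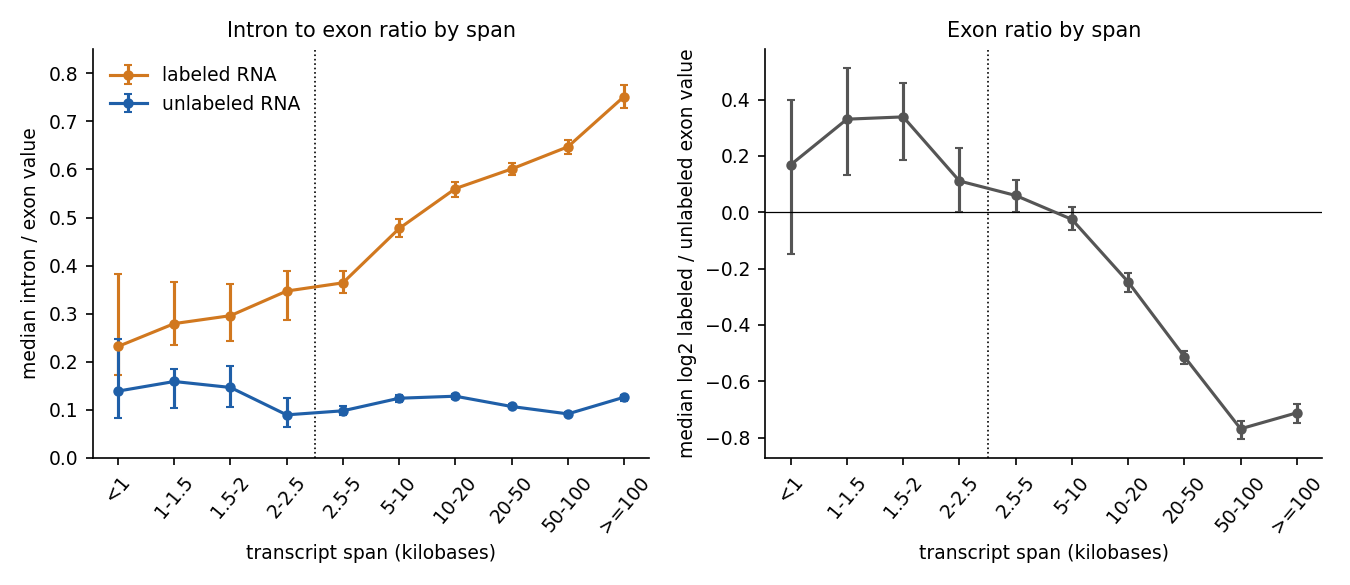
Medians by transcript span (horizontal axis, kilobases, classes of unequal width), with 95% order-statistic intervals; the dotted line marks 2.5 kilobases. Left, the intron to exon ratio in labeled RNA (orange) goes from 0.232 under 1 kilobase to 0.752 at 100 kilobases and more, and that in unlabeled RNA (blue) stays between 0.0896 and 0.159; right, the log2 labeled to unlabeled exon ratio is highest at 1.5 to 2 kilobases (0.34) and lowest at 50 to 100 kilobases (-0.77).

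A ratio plane sets the labeled against the unlabeled ratio of each transcript. A labeled ratio of 1 or more means more intron than exon signal per length in new RNA. This held for 201 of 884 short transcripts, or 22.7% (20.1 to 25.6%), against a background of 28.2% over 31386 spliced coding transcripts. In another 160 transcripts the labeled ratio was below 1 and no higher than the unlabeled one, a share of 18.1% (15.7 to 20.8%) against 5.1% over all. In short genes this share was 26.4% (21.1 to 32.4%). Transcripts of that kind hold no more intron per exon in new than in old RNA. The share was 28.0% under 1000 bases, 23.1% at 1000 to 1500, 18.7% at 1500 to 2000, 12.5% at 2000 to 2500, 11.6% at 2500 to 5000 and 1.82% at 50000 to 100000 bases. At mean exon values of 100 to 1000 it was 11.3% (7.57 to 16.5%) in the short transcripts, 3.76% at 2500 to 10000 bases and 0.812% above.

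**Figure D3:**
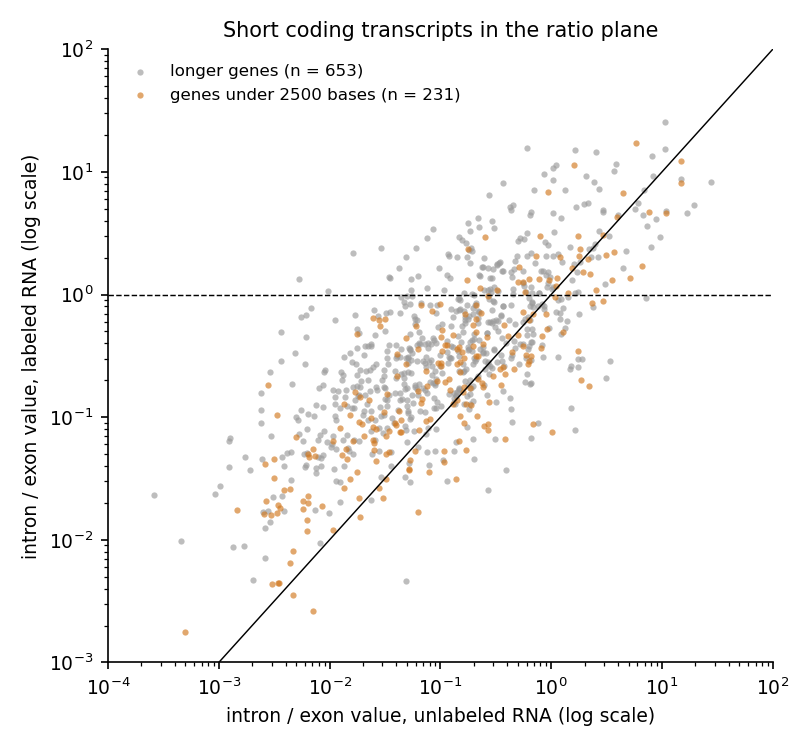
Intron to exon ratio of 884 short transcripts in labeled (vertical axis) and unlabeled RNA (horizontal axis), both on log scales without unit, for short genes (orange, n = 231) and short forms of longer genes (grey, n = 653). The solid line marks equal ratios, with 61 of the short genes' transcripts below it at labeled ratios under 1, and the dashed line marks a labeled ratio of 1, with 41 of them on or above it.

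The exons themselves can be set against each other between the pools. Each pool was scaled to the same total, so a log2 labeled to unlabeled ratio of 0 does not mean equal amounts of RNA, and the reference is the median over all spliced coding transcripts, -0.39. In the 1528 short transcripts with both exon values above 0 the median was 0.24 (0.15 to 0.32), against 0.00 at spans of 2500 to 10000 bases and -0.53 above. Exon values were at least 2-fold higher in labeled RNA in 432 transcripts, or 28.3% (26.1 to 30.6%), against 14.7% over all. They were at least 2-fold lower in 300, or 19.6% (17.7 to 21.7%), against 26.6%. In short genes the median was 0.61 (0.55 to 0.76), with 38.4% higher and 7.39% lower. Short forms of longer genes had a median of -0.03 (-0.15 to 0.06), with 23.5% higher and 25.4% lower.

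Completeness and exonic length moved with this ratio. Complete short forms of longer genes had a median of 0.35 (0.18 to 0.51) and incomplete ones -0.28 (-0.40 to -0.15). Over complete models with 400 to 600 exonic bases the medians were 0.99 (0.72 to 1.21) for spans under 2500 bases, 0.87 (0.66 to 1.00) for 2500 to 10000 bases and 0.25 (-0.04 to 0.43) above. At 800 to 1200 exonic bases they were 0.61 (0.45 to 0.83), 0.44 (0.35 to 0.55) and 0.32 (0.20 to 0.35), and at 1200 to 2000 bases 0.33, 0.16 and -0.13. At 600 to 800 bases the short transcripts were below the middle class, at 0.55, 0.61 and 0.23, and at 2000 bases or more, with 9 short transcripts, the medians were -0.60, -0.15 and -0.65. In each class the intervals of the short transcripts overlapped those of 2500 to 10000 bases. The part of message length in the ratio of the short transcripts was not tested further.

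**Figure D4:**
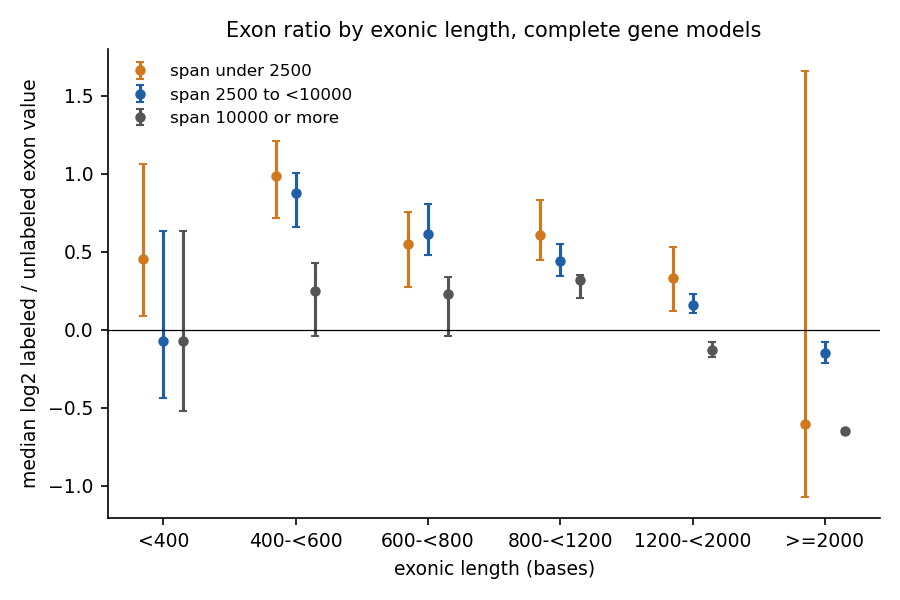
Median log2 labeled to unlabeled exon ratio (vertical axis) by exonic length (horizontal axis, bases) of complete gene models spanning under 2500 (orange), 2500 to under 10000 (blue) and 10000 or more bases (grey), with 95% order-statistic intervals. The orange point at 400 to under 600 bases is at 0.99, and the one at 2000 bases or more rests on 9 transcripts.

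In 697 longer genes a short form was set beside a longer transcript of its own gene. On each side the transcript with the highest mean exon value was taken. Such a choice favours a high exon value and a low intron to exon ratio on both sides, and its part in the comparison was not tested. The short form had the higher log2 exon ratio in 340 of them (48.8%), and the median difference, short minus long, was -0.04. Its exon value was the higher one in 225 (32.3%). In the 433 genes with all values above 0, the labeled intron to exon ratio of the short form was higher in 256 (59.1%), with a median log2 difference of 0.44. Reads shared by the forms of a gene are split between them by the quantification, so these pairs are not independent.

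Members are named below by roles, 1 transcript per gene, with the value in each library. Besides those called short forms, Id2, Uqcrq, Pfn1, Eif5a, Hmgn2, Serf2, Apoe, Gm14403, Gm15446 and B230307C23Rik are of genes of 2500 bases or more. For each list, the counts at least 2-fold higher and lower in labeled RNA stand against 14.7% and 26.6% over all spliced coding transcripts and 28.3% and 19.6% over the short ones. Dppa5a had exon values of 3263 in labeled and 1235 in unlabeled RNA, 2.64-fold apart, and intron values of 38.7 and 7.72. Utf1 went the other way, with 0.357 of its unlabeled exon value in labeled RNA. A short, incomplete form of Tdgf1, the Nodal co-receptor, had exon values of 247.7 and 530.1 and intron values of 101 and 98.1. These regulators of early embryonic cells thus lay on both sides of the all-transcript median, and the list had 1 of 7 transcripts (14.3%, against 14.7% over all) at least 2-fold higher and 2 (28.6%, against 26.6%) lower, at a median of -0.79 against -0.39 over all.

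Genes that signals switch quickly had a median mean exon value of 16.3, against 13.7 over the short transcripts. Id1 had exon values of 23.5 and 11.0, Id3 of 24.0 and 7.29, and Gadd45g, a stress-response gene that interacts with cell-cycle proteins, of 29.5 and 8.73, each with both intron values at 0. Their exon values were 2.14, 3.30 and 3.38 times as high in labeled RNA. Id2 (18.2 and 15.5) and Gadd45b (5.25 and 8.31) showed no such excess, and Gadd45a was the highest of the 6 with 106.3 and 74.5. Its intron values of 40.9 and 8.57 gave ratios of 0.385 and 0.115. In the whole list of Id, Gadd45 and immediate early genes, 4 of 12 transcripts (33.3%, interval 13.8 to 60.9%) were at least 2-fold higher and 2 lower, near the 28.3% and 19.6% of the short transcripts (median 0.45).

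Respiratory chain subunits other than Nduf had the highest median exon ratio of the 15 gene lists. Of 26 transcripts (11 genes) with exon values above 0, 19 (73.1%, against 14.7% over all) were at least 2-fold higher in labeled RNA and 0 (against 26.6%) lower, with a median of 1.65 against -0.39. With 1 transcript per gene it was 8 of 11 and a median of 1.86. The subunits named here have 371 to 550 exonic bases. Complete short-gene transcripts of 400 to 600 exonic bases, some of them from this list, had a median of 1.20, with 56.3% at least 2-fold higher. Under 400 exonic bases these were 1.54 and 61.1%. The part of message length in the exon ratio of the list was not tested. Cox7c had exon values of 2319 and 811.8 and intron values of 124 and 20.3. Uqcr10 had exon values of 1149 and 316.6 with intron values of 20.6 and 1.82, so its labeled ratio was 0.0180. Atp5k, a subunit of ATP synthase, had the highest exon ratio of all named members, 514.8 against 76.3 (6.75-fold), with intron values of 5.93 and 0. Uqcrq, another bc1 subunit, combined 420.5 and 89.3 in exons with 337.2 and 68.4 in introns, and its ratio was 0.765 in old and 0.802 in new RNA. Cox8a was nearest to equal, at 479.7 and 376.5. These subunits all had the higher exon value in labeled RNA, while their labeled intron to exon ratios ran from 0.0115 to 0.802.

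Proteins of protein tagging and breakdown had the lowest labeled ratio among the lists, 0.0238 over 23 transcripts. It was 0.570 over all and 0.304 over the short transcripts. The list was abundant, with a median mean exon value of 419.1 against 21.65 over all. Short transcripts had a labeled ratio of 0.104 at mean exon values of 100 to 1000 and of 0.0459 above 1000. The part of abundance in the low ratio of the list was not tested. The ubiquitin gene Ubb had exon values of 1085 and 882.0 and intron values of 20.8 and 3.02. Fau, a ubiquitin-like protein fused to a ribosomal protein, had 785.9 and 201.0 with 36.1 and 0.63, a labeled ratio of 0.0460. Exon values were at least 2-fold higher in 9 of 24 transcripts (37.5%, interval 21.2 to 57.3%, against 14.7% over all) and lower in 1 (4.17%, against 26.6%) (median 0.89, and 0.52 with 1 transcript per gene). With 1 transcript per gene 3 of 10 (30%) were higher, near the 28.3% of the short transcripts. Fau was not caught by the symbol filter on ribosomal proteins, so the list holds a ribosomal protein gene.

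Metallothioneins and redox enzymes had 9 of 17 transcripts (52.9%, against 14.7% over all) at least 2-fold higher in labeled RNA and 0 (against 26.6%) lower (median 1.15, and 0.52 with 1 transcript per gene). With 1 transcript per gene 4 of 10 (40%) were higher, and the interval of 16.8 to 68.7% held the 28.3% of the short transcripts. Mt2 had exon values of 2310 and 1536 and intron values of 59.6 and 6.73. Mt1 was lower, with 343.8 and 253.2 in exons and 28.5 and 6.21 in introns. All of their intron bases lie under an annotated exon of another transcript. Gpx1, a glutathione peroxidase, had 438.8 and 362.9 with 24.4 and 2.56, and Selenoh, a nuclear selenoprotein, 426.7 and 100.4 with 43.6 and 14.9.

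Cytoskeletal genes split. Tmsb10 had exon values of 433.4 and 191.0 and Tmsb4x, its relative on the X chromosome, 509.0 and 199.9, with labeled intron to exon ratios of 0.0229 and 0.00448. Pfn1, a profilin that feeds actin growth, had 540.6 and 1835, and a short form of Actg1, a cytoplasmic actin, 825.6 and 1465. The list had 8 of 23 transcripts (34.8%, against 14.7% over all) at least 2-fold higher and 10 (43.5%, against 26.6%) lower (median -0.67, and -0.21 with 1 transcript per gene). With 1 transcript per gene 4 of 10 were higher and 3 lower. Translation factors lay near the background over all, with 0 of 14 higher (interval 0 to 21.5%, against 14.7%) and a median of -0.39, as over all. Lower were 5 (35.7%, interval 16.3 to 61.2%, against 26.6%). The short transcripts stood apart from this list, with 28.3% higher and a median of 0.24. With 1 transcript per gene 0 of 9 translation factors were higher and 4 lower, at a median of -0.62. Eif5a had exon values of 1053 and 1613, and Eif1, which helps find the start codon, of 655.6 and 519.0. H2afz, the histone variant H2A.Z, was the most abundant short gene, with exon values of 4464 and 5803, intron values of 217.7 and 74.9 and ratios of 0.0488 and 0.0129. Hmgn2, a nucleosome-binding protein, was equal in exons (346.6 and 346.7) and held 152 and 29.7 in introns. H2afj had more intron in old RNA (34.1) than in new RNA (18.2).

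**Figure D5:**
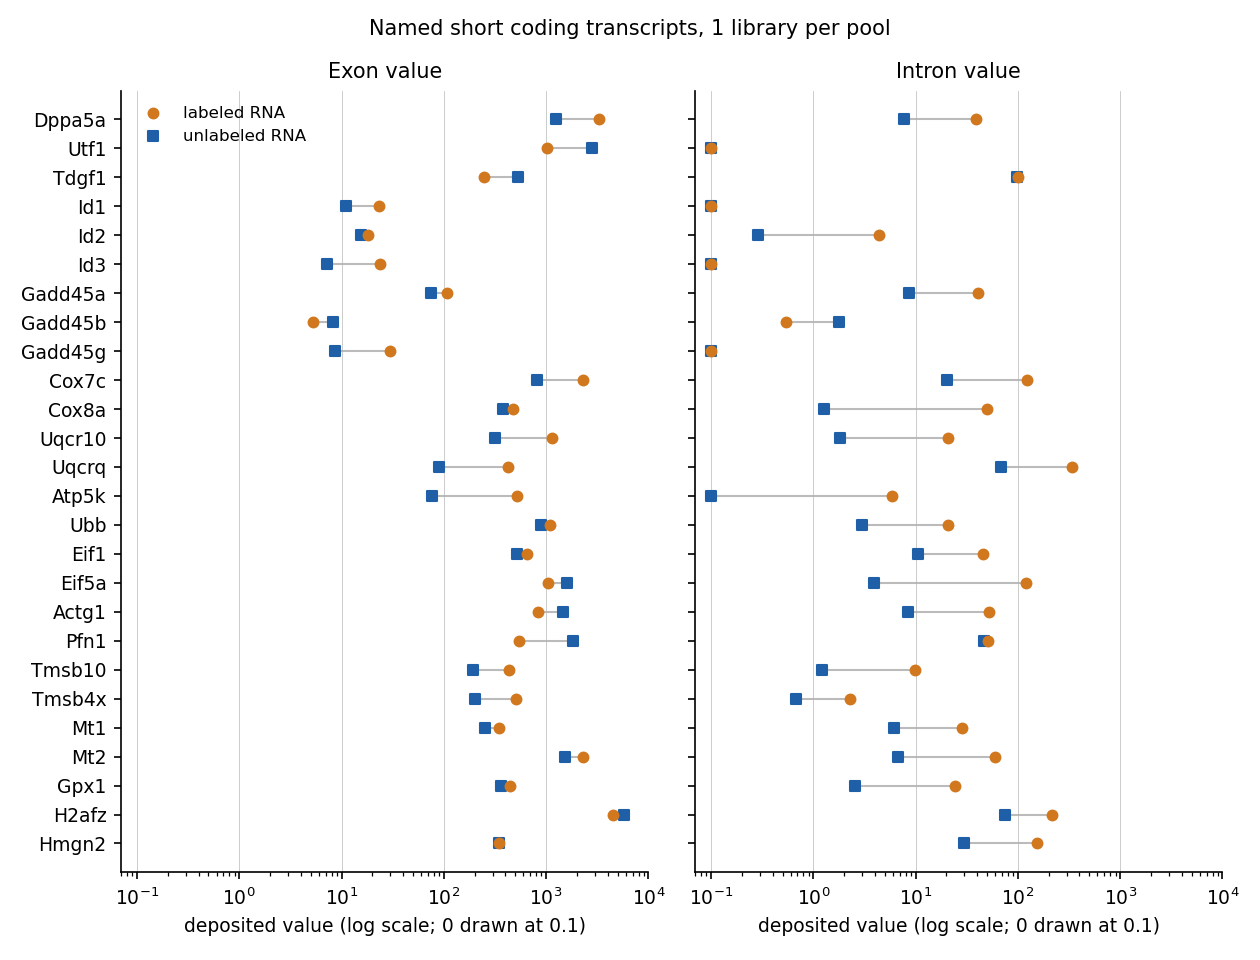
Deposited exon (left) and intron values (right) of named short transcripts in labeled (orange circles) and unlabeled RNA (blue squares), 1 library each, on log axes in the deposited unit, with 0 drawn at 0.1. Respiratory chain, thymosin and metallothionein transcripts have their exon value higher in labeled RNA, and Utf1, Pfn1, Actg1 and Eif5a have it lower; both intron values of Utf1, Id1, Id3 and Gadd45g are 0.

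In the remaining lists, exon values were at least 2-fold higher in labeled RNA in 3 of 12 transcripts for mitochondrial import (0 lower), 5 of 20 for snRNP and spliceosome proteins (1 lower), 1 of 6 for RNA polymerase subunits (0 lower), 1 of 19 for chaperones (2 lower), 4 of 13 for the secretory pathway (0 lower) and 1 of 8 for histone variants and HMG proteins (0 lower). These small counts, 5.26 to 30.8% higher, are not read as apart from the 14.7% over all or the 28.3% of the short transcripts. Snrpe, a core snRNP protein, had a short form at 37.3 and 6.66. Genes typical of other tissues mostly stayed under the minimum. Of 56 transcripts of developmental transcription factors 14 passed the minimum, led by Sox15 with 101 and 77.7, and of 222 transcripts of tissue-restricted secreted and structural proteins 41 did, led by the apolipoprotein gene Apoe with 113 and 91.3. Of 35 of the latter with both values above 0, 18 (51.4%, against 14.7% over all) were at least 2-fold higher in labeled RNA and 0 (against 26.6%) lower, at a median mean exon value of 6.89. Short transcripts with mean exon values of 1 to 10 were at least 2-fold higher in 34.6%. The symbol pattern of this list also caught Csnk2b, a kinase subunit gene that is not tissue-restricted.

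Among 189 genes with a short transcript at a mean exon value of at least 100, 68 were short genes. They made up 13 of the 20 highest exon ratios and 4 of the 20 lowest. Of the 20 lowest, 16 were incomplete models, and of the 20 highest, 2. Over all 2943 short transcripts 45.5% are marked incomplete, and the share over the 189 genes was not computed. The lowest were short forms of Daxx, a histone chaperone (33.5 and 244.9), of the 14-3-3 gene Ywhaz (93.0 and 615.7) and of Birc6 (69.5 and 393.2), all incomplete. After Atp5k the highest were Serf2 (191.1 and 39.0) and Uqcrq. Labeled intron to exon ratios were ranked over the 152 of these genes with all 4 values above 0. This left out a short form of Hsp90aa1 at 0.0012, whose unlabeled intron value was 0. The lowest ranked were Bex1 (0.00177), Cstb, a protease inhibitor (0.00263), and the cytokine gene Mif (0.00353), all short genes. The highest was 2.11 for Gm17535, the model with gaps of 4, 529 and 2 bases, where the unlabeled ratio was 3.15. It was followed by Gm14403 (1.15), a short form of the helicase gene Recql (0.918) and one of Mettl27 (0.875). In Recql, Gm14403 and Gm17535 the intron value was higher in old than in new RNA. Predicted genes with near-identical copies, such as these Gm models, are uncertain, since reads can be split among the copies.

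The shortest transcripts that passed with all values above 0 were Gm15446 (379 bases) and B230307C23Rik (380 bases), with labeled ratios of 0.150 and 0.0558. Just inside the limit lay short forms of Il2rg (2497 bases) and Sh3bp1 (2499 bases), with labeled ratios of 0.495 and 0.421 and exon values of 17.7 and 12.8 and of 3.49 and 1.14. Just outside lay Clps (2502 bases) and Use1 (2516 bases), with labeled ratios of 2.26 and 0.0597 and exon values of 5.31 and 6.35 and of 74.3 and 43.9. These single transcripts differ among themselves by more than the classes on either side of the limit do.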

How the data were processed

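The authors made the values with RSEM from STAR alignments against an Ensembl v91 reference, with ribosomal reads set aside. The submitters' processing notes name STAR 2.5.0, RSEM and the builds mm10 and GRCm38. The deposited values are a relative signal, called TPM, with 1 exon and 1 intron value per transcript and library. By its column totals the scale is 10-fold that of ordinary TPM. No counts are given, so depth is unknown and only the number of transcripts sets the intervals.

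Transcripts were joined by identifier to GENCODE M21 (110366 of the 121429 with an exon value found). Ratios used transcripts with a mean exon value above 1 and, for introns, all 4 values above 0. Shares have 95% Wilson intervals and medians order-statistic intervals. No test was made, since 1 library of each pool was used. Further replicates of the study were not analysed here. Joint and coding sequences came from the M21 transcripts. RefSeq promoters matched only 206 of 332 expressed short genes (62.0%), so a promoter comparison was void. Intron sequence was not analysed here.

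The members, gene lists and named transcripts were chosen with earlier results of these data known. Named were the 8 most abundant members, the 6 highest and 6 lowest in exon ratio and in labeled ratio at mean exon values of at least 100, the 2 shortest, the 2 on each side of the limit, the 3 most abundant of each of 15 lists and fixed genes. The text gives part of these, and Fau, Tmsb4x and Serf2 come from the ends of these orders. Eif4g2 was added after its values were seen. The code was checked on simulated data. Analyses ran in Python 3.11.15 with pandas 2.3.3, scipy 1.17.1, numpy 2.4.6 and, for plots, matplotlib 3.10.9.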

Additional observations from a re-analysis of the deposited data

How the results depend on the processing

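No paired analysis was possible because each pool has 1 library. Leaving out a library was not possible for the same reason. The values were recomputed for the short transcripts under up to 13 alternatives, as far as each applied, of which the splits by gene length, complete models and introns at 0 kept as ratios of 0 were chosen after seeing the data. Of the recomputed main values, 53 stayed within the interval of the reported one, 53 moved beyond it and 2 changed sign. For the gene lists 28 stayed and 2 moved. For the classes by intron length, exon number and span 30 stayed and 11 moved. The comparisons with longer transcripts use the longer transcripts at the same setting, and each cause was not tested.

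The share with an intron value of 0 was 63.5% without a minimum, 33.9% at mean exon values above 10 and 19.7% above 100. It was 52.3% for introns overlapping no other exon, 40.7% with at least 200 bases of intron, 49.6% for spans under 2000 bases, 54.9% in short genes, 39.2% in longer genes and 48.1% in complete models. For transcripts of 2500 bases or more it was at most 9.78%, for introns overlapping no other exon.

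At mean exon values above 10 the median ratio was 0.200 in labeled and 0.0584 in unlabeled RNA, 11.4% had a labeled ratio of 1 or more, the median log2 intron ratio was 1.77, and 24.4% were at least 2-fold higher in labeled exon signal. Above 100 these were 0.0910, 0.0176, 2.27%, 1.95 and 14.6%, with 10.5% not above the unlabeled ratio and 16.4% at least 2-fold lower. There the median log2 exon ratio changed sign, to -0.050, against -0.88 in the longer transcripts. With a pseudocount of 0.1 the median ratios were 0.179 and 0.0577, 18.2% had a labeled ratio of 1 or more, 27.9% did not exceed the unlabeled ratio, the median log2 intron ratio was 1.45, and 31.8% were at least 2-fold higher. After subtraction of leakage (0.139 of the unlabeled value) the labeled ratio was 0.347, 26.6% reached 1, the median log2 exon ratio was 0.10, and 25.7% were at least 2-fold lower.

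For introns overlapping no other exon the labeled ratio was 0.347, 27.0% reached 1, 14.6% did not exceed the unlabeled ratio and the median log2 intron ratio was 2.02. For spans under 2000 bases 21.6% did not exceed it. With introns at 0 kept, the median ratios were 0.150 and 0.0187. In complete models the labeled ratio was 0.206, 17.0% reached 1, 21.9% did not exceed the unlabeled ratio, the median log2 exon ratio was 0.57, and 36.3% were at least 2-fold higher and 8.81% lower. In short genes the labeled ratio was 0.191, 17.7% reached 1, 26.4% did not exceed the unlabeled ratio, the median log2 exon ratio was 0.61, and 38.4% were higher and 7.39% lower. In short forms of longer genes 15.2% did not exceed it, the median log2 exon ratio changed sign to -0.035, and 23.5% were higher and 25.4% lower. With 1 transcript per gene, the median labeled ratio of the snRNP list was 0.137 (0.847 over all its transcripts) and the median log2 exon ratio of the proteasome and ubiquitin list was 0.52.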

Other observations

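At the main setting the signal of introns between the pools also differed in the short transcripts. Over the 884 transcripts with all values above 0, the median log2 labeled to unlabeled intron ratio was 1.62, against 1.99 in transcripts of 2500 bases or more. It was 0.99 under 1000 bases and 1.77 at 2000 to 2500 bases. For introns overlapping no other exon the median was 2.025 (1.749 to 2.333), against 2.087 in the longer transcripts. At mean exon values above 100 it was 1.955 (1.645 to 2.273) against 2.084. In both settings the interval of the short transcripts held the value of the longer ones. By number of exons, 33.7% of the short transcripts with 2 exons had a labeled intron value of 0, 23.5% with 3, 15.0% with 4 and 14.1% with 5 or more. The median labeled ratio over the same classes was 0.396, 0.306, 0.246 and 0.239. For introns overlapping no other exon (98, 54, 16 and 17 transcripts) it was 0.445, 0.270, 0.574 and 0.313. There the share with a 0 in either library was 56.6, 45.0, 57.9 and 35.7%. In those transcripts neither value fell steadily with exon number. These are descriptions of 2 libraries.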
